A study of Mus musculus with 63 samples.

Results

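The genes described here are the subunits of the CoREST-LSD1 corepressor: the 3 CoREST scaffold genes Rcor1, Rcor2 and Rcor3, the histone demethylase gene Kdm1a (LSD1), the deacetylase genes Hdac1 and Hdac2, and the accessory subunit genes Hmg20b and Gse1. They were taken by gene name from all count tables and make up 8 of the 54752 genes listed. The members were chosen by the measured day 10 values of the time course, where Rcor2 fell strongly, with the other 7 added as its complex partners and paralogs, so the day 10 values are given as a description without a test.

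RNA was sequenced from mouse small intestinal organoids and intestinal epithelial cells (IECs) in which the Mediator kinases CDK8 and CDK19 were deleted, alone or together, to ask which transcripts depend on them. The strain of all samples was C57BL/6, and 57 libraries in 19 groups of 3 were used. The 5 groups of day 7 organoids all received a 24-hour pulse of 100 nM 4-hydroxytamoxifen (4-OHT): VillinCreERT2 and C57BL/6 controls, VillinCreERT2; Cdk8 fl/fl (Cdk8 KO), Cdk8 fl/fl; Cdk19 ko/ko without Cre (Cdk19 KO), and VillinCreERT2; Cdk8 fl/fl; Cdk19 ko/ko (DKO). The time course used organoids of the DKO genotype, which lack CDK19 in both arms, given 0.001% ethanol (EtOH) or 4-OHT and collected at days 3, 5, 7 and 10. The same genotype was grown in Wnt3-conditioned medium (Wnt3-CM) and collected at 10 days with EtOH or 4-OHT. Organoids of VillinCreERT2; Cdk8 fl/fl; Cdk19 ko/D173A (Cdk19 D173A), whose only CDK19 is kinase-dead, were collected at 7 days with EtOH or 4-OHT. IECs came from VillinCreERT2 and DKO mice 14 days after the last of 5 daily tamoxifen injections of 80 mg/kg, so both IEC groups had received the drug. CreERT2 was driven by the Villin promoter, which is active in the intestinal epithelium, and the IEC columns are numbered separately for each library. By contrast, the 3 columns of an organoid group share 1 number, so p-values in organoids measure the spread between libraries of that number, which may be technical.

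CoREST proteins are scaffolds that hold LSD1 and the deacetylases HDAC1 and HDAC2 together and bring LSD1 to nucleosomes, where the complex removes methyl groups from lysine 4 of histone H3 and acetyl groups from histone tails. DNA-binding repressors with a SNAG domain, such as GFI1 and INSM1, recruit the complex to their targets. In the intestinal epithelium LSD1 is needed for Paneth cells, and GFI1 acts in the choice between secretory fates.

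Total counts were 15485959 to 32909565 per library. The 7 epithelial markers summed to between 5434 and 11364 CPM (counts scaled to the library total by TMM) in every organoid library and to between 9399 and 11354 CPM in the IECs, so the tissue label was met. The 12 immune markers summed to at most 15.0 CPM in organoids, with Cd8a, Gzma and Gzmb at 0 in every organoid group. Whole-gene counts of Cdk8 averaged 75.6 CPM in VillinCreERT2, 80.6 CPM in Cdk8 KO and 66.3 CPM in DKO organoids, and a transcript without the deleted exon still counts, so whole-gene counts leave the genotypes unchecked. The same holds for Cdk19, at 25.6 CPM in Cdk19 KO, 27.7 CPM in DKO and 28.1 CPM in VillinCreERT2 organoids and at means of 38.1 to 58.4 CPM in the time course groups. The lines differed in sex-linked transcripts: Xist averaged 380.2 CPM in VillinCreERT2, 664 CPM in C57BL/6 and 601 CPM in Cdk19 D173A organoids with EtOH, and less than 1 CPM in Cdk8 KO, Cdk19 KO, DKO, time course and Wnt3-CM organoids. Differences between genotypes are therefore differences between lines as well, and genotype and line cannot be told apart, whereas each EtOH and 4-OHT pair was made within 1 genotype. No VillinCreERT2 organoids with EtOH were among the samples. Within these pairs, deletion of Cdk8 and exposure to 4-OHT with active Cre therefore cannot be told apart.

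Rcor2 (ENSMUSG00000024968.13) lies on the plus strand of chr19:7267325-7275225 of GRCm38 (mm10), Rcor1 (ENSMUSG00000037896.17) on the plus strand of chr12:111039351-111115901 and Rcor3 (ENSMUSG00000037395.15) on the minus strand of chr1:192098546-192138062. Because these 3 paralogs differed in their response, the stretches upstream of their transcription starts are shown, from 250 to 71 bases before the start, 5′ to 3′ on the strand of the gene, from RefSeq (GRCm38.p6), with each GC box (GGGCGG on either strand) in capitals.
Rcor2: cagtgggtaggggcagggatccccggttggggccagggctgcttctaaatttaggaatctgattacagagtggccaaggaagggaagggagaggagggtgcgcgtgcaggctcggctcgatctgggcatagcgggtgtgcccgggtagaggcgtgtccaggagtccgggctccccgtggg
Rcor1: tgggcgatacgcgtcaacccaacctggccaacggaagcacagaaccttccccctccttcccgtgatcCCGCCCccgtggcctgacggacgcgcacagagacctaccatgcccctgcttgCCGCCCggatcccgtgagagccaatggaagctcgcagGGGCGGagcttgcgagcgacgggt
Rcor3: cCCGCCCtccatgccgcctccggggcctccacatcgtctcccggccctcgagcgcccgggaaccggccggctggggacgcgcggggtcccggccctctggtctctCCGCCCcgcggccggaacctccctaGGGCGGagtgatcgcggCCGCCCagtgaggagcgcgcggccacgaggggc
The windows are chr19:7267144-7267323, chr12:111039117-111039296 and chr1:192138111-192138290. They are counted from the RefSeq starts, which differ from the gene positions above, taken from GENCODE M21. Their distances from those positions therefore differ between the genes. That of Rcor2 held no GC box, that of Rcor1 held 3 and that of Rcor3 held 4, while 21.1% of the 32851 mouse promoters of this length in the table held at least 1. The Rcor2 window had a GC content of 64.4% and 10 CpG dinucleotides, against 67.2% and 18 for Rcor1 and 79.4% and 26 for Rcor3, with medians of 51.1% and 4 over all promoters. None of the 3 held an E-box (CANNTG, in 55.5% of all promoters) or the core of a TCF site (CTTTGA on either strand, in 10.8%). These matches describe letters and say nothing of which factors bind.

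The group means of Rcor2 spanned a wider range than those of its partners, but Rcor2 was picked for a large change and they were not. Per library, normalized counts of Rcor2 ranged from 7.26 to 116 CPM in organoids and from 0.540 to 1.39 CPM in IECs. The highest group mean among organoids was 12.5 times the lowest, whereas the ratio of highest to lowest group mean was 1.44 for Kdm1a, 1.598 for Hdac1, 1.63 for Hmg20b, 1.63 for Rcor1, 2.01 for Rcor3, 2.48 for Hdac2 and 2.87 for Gse1. The lowest organoid library had 5.22 times the Rcor2 level of the highest IEC library. IECs and organoids sit in separately normalized tables, and the gap was not tested. The organoid ratios also span lines, separately normalized tables and the day 10 groups, so they are a description.

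In order of their means, the Rcor2 levels ran from the time course with EtOH at days 5, 7 and 3 and with 4-OHT at day 3 (106, 99.4, 92.8 and 88.6 CPM), through 4-OHT at days 5 and 7 and EtOH at day 10 (65.5, 63.1 and 58.0 CPM), to Cdk19 D173A organoids with EtOH (36.2 CPM). Wnt3-CM with EtOH (30.1 CPM), Cdk8 KO (28.8 CPM), VillinCreERT2 (28.8 CPM), C57BL/6 (25.4 CPM), Wnt3-CM with 4-OHT (24.5 CPM) and Cdk19 KO organoids (24.2 CPM) followed. DKO organoids (19.5 CPM), 4-OHT at day 10 (14.9 CPM) and Cdk19 D173A organoids with 4-OHT (8.47 CPM) were the lowest. Neighbours in this order did not differ beyond their spread, in that their libraries overlapped, within the runs EtOH day 5 and day 7, EtOH and 4-OHT day 3, 4-OHT days 5 and 7 with EtOH day 10, Wnt3-CM with EtOH to VillinCreERT2, and C57BL/6 to Cdk19 KO, and all other neighbours were apart. The groups come from tables that were normalized separately, so this order across tables is a description. DKO organoids at day 7 and the time course with 4-OHT at day 7 have the same genotype, treatment and time in the labels but carry different numbers in the column names and sit in separate tables, and their Rcor2 means were 19.5 and 63.1 CPM. Line and table cannot be told apart here.

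**Figure D1:**
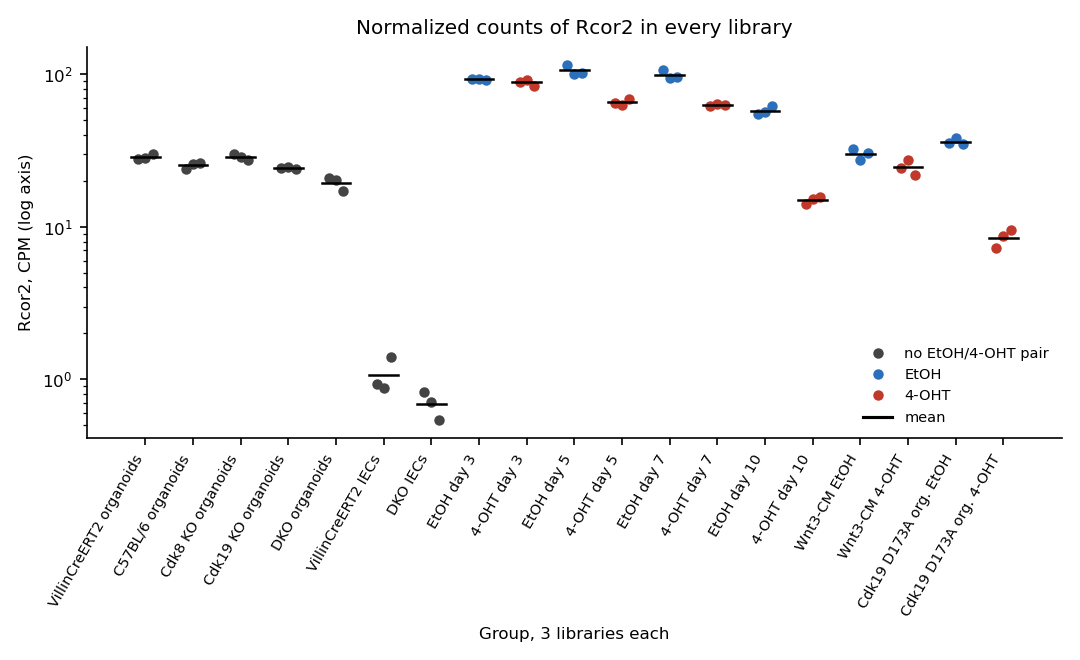
Normalized counts of Rcor2 (CPM, log axis) in each of the 57 libraries by group; points are libraries, black bars the means of 3, blue EtOH, red 4-OHT and grey groups without such a pair. IECs lie between 0.540 and 1.39 CPM, below every organoid library, and the lowest organoid points are those of Cdk19 D173A with 4-OHT.

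Within the time course, Rcor2 was at the level of the vehicle arm at day 3 and lower at days 5 and 7. At day 3, its normalized counts were 93.5, 92.6 and 92.2 CPM with EtOH and 89.5, 92.5 and 83.8 CPM with 4-OHT. The arms overlapped, and the log2 fold change was -0.07 (standard error 0.07, 95% interval -0.21 to 0.07) with an adjusted p of 0.473 in the quasi-likelihood test of edgeR. At day 5, the counts were 116, 100.3 and 102 CPM with EtOH and 64.9, 62.6 and 69.0 CPM with 4-OHT. All 3 libraries with 4-OHT lay below all 3 with EtOH, and Rcor2 fell by 0.70 on the log2 scale, or 1.62-fold (standard error 0.07, adjusted p = 4.04e-09). At day 7, the counts were 107, 94.9 and 96.5 CPM with EtOH and 61.8, 64.4 and 63.1 CPM with 4-OHT. The arms were again apart, with a log2 fold change of -0.66, or 1.58-fold (standard error 0.07, adjusted p = 4.32e-09).

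The response at day 7 minus that at day 3 was -0.59 for Rcor2 (standard error 0.09, adjusted p = 7.62e-06), just past the 1.5-fold cutoff, and 5 of 19 alternatives put it under that cutoff. To be called differentially expressed (DEG), a gene had to change by more than 1.5-fold and have an adjusted p below 0.05. Between day 3 and day 7 of the EtOH arm, the log2 fold change of Rcor2 was 0.10 (adjusted p = 0.226). The day 7 columns are named in another style than those of days 3 and 5, so day and handling cannot be told apart in either contrast. In bulk RNA, fewer cells that express a gene and less of its RNA per cell cannot be told apart.

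At day 10, the values that chose Rcor2 were 54.8, 56.8 and 62.2 CPM with EtOH and 14.1, 15.2 and 15.6 CPM with 4-OHT. The log2 fold change was -1.95, a 3.87-fold lower level, and this was the 19th largest fall among 11419 genes averaging at least 50 counts with EtOH. The EtOH libraries of day 10 were themselves lower than those of days 3 to 7. The day 10 columns are named in another style than those of the other days, and day and handling cannot be told apart.

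Rcor2 was the only DEG among the 8 genes at day 5 and at day 7, and no member was one at day 3. The share of all genes called lower was 4.62% at day 5 and 9.25% at day 7, and the share called in either direction was 12.4% at day 3. At day 10, Rcor2 alone was past 1.5-fold, where 6.92% of all genes were DEGs with a lower level, and nothing is read from this, since it chose the gene. From day 3 to day 7 of the EtOH arm no member was a DEG, against 16% of all genes.

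Among the scaffolds, Rcor1, the broadly expressed paralog, was at 110.0, 119.8 and 119 CPM with EtOH and 101, 104 and 106 CPM with 4-OHT at day 5, a log2 fold change of -0.16 (adjusted p = 0.0333). The groups did not overlap, but the change was under the fold cutoff. Rcor3, a paralog reported to counter CoREST activity on LSD1 in blood cells, was at 22.7, 19.2 and 22.1 CPM with EtOH and 31.2, 29.8 and 29.3 CPM with 4-OHT at day 7. All 3 libraries with 4-OHT were higher, by 0.50 on the log2 scale (standard error 0.09, adjusted p = 2.59e-05), which is under the fold cutoff. From day 3 to day 7 of the EtOH arm, the log2 fold change of Rcor3 was -0.39 (adjusted p = 0.000609).

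Hdac2, one of the 2 deacetylases of the complex, differed in its response between days 3 and 7. At day 3, its normalized counts were 56.2, 58.9 and 59.4 CPM with EtOH and 64.2, 63.8 and 65.9 CPM with 4-OHT (log2 fold change of 0.15, adjusted p = 0.113). At day 7, they were 64.3, 66.1 and 75.6 CPM with EtOH and 45.9, 50.1 and 52.7 CPM with 4-OHT (log2 fold change of -0.47, adjusted p = 6.27e-06). The arms did not overlap on either day. The day 3 value passed neither cutoff, and the day 7 value passed the adjusted p but not the fold cutoff. The response at day 7 minus that at day 3 was -0.62 (standard error 0.10, adjusted p = 1.72e-05), past both, but it was -0.55, under the fold cutoff, without EtOH day 7 replicate 3. Rcor2 and Hdac2 were the 2 of 8 members called in this contrast, which called 24.5% of all genes in either direction.

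Hdac1, the other deacetylase, had a log2 fold change of 0.06 at day 3 (adjusted p = 0.499), of -0.17 at day 5 (adjusted p = 0.0298) and close to 0 at day 7 (adjusted p = 0.965). Those of Kdm1a, the demethylase that the scaffolds hold, were 0.17, -0.11 and -0.21 (adjusted p = 0.0522, 0.196 and 0.00964), and its response at day 7 minus that at day 3 was -0.38 (adjusted p = 0.00154), under the fold cutoff. Hmg20b, an HMG-box subunit of the complex, had log2 fold changes of -0.14, 0.11 and -0.13, none with an adjusted p under 0.3. Gse1, a coiled-coil protein found with LSD1 and HDAC1, had log2 fold changes of 0.10, -0.22 and 0.14, the second with an adjusted p of 0.0204. At day 10, the log2 differences were -0.42 for Rcor1, 0.04 for Rcor3, -0.19 for Kdm1a, 0.16 for Hmg20b, 0.11 for Hdac1, -0.32 for Hdac2 and -0.39 for Gse1. No ranking against Rcor2 is read from them, since its fall on that day chose it.

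By the adjusted p alone, 6 of 8 members passed at day 5 and 4 of 8 at day 7 by edgeR, where 38.3% and 45.2% of all genes did, and 0 passed at day 3 by edgeR, where 34.4% did (2 had an unadjusted p under 0.05). DESeq2 and limma-voom also called 0 members past both cutoffs at day 3 and 1 at day 5 and at day 7. With 1 library left out, Rcor1, Rcor3, Hdac1 and Gse1 at day 5 each lost the pass, with adjusted p-values of 0.0854 and 0.0908 for Rcor1 and Gse1 without EtOH replicate 2, 0.247 for Rcor3 without EtOH replicate 3 and 0.0755 for Hdac1 without 4-OHT replicate 2. With the fit made on the compared groups alone, the same 4 genes lost it at day 5 too, with adjusted p-values of 0.0612 to 0.0884. With upper quartile scaling Rcor1 and Hdac1 lost it at day 5 (0.0871 and 0.0762). At day 7 Kdm1a lost it, with 0.0708 without EtOH replicate 1. In the EtOH arm between days 3 and 7, Rcor1, Rcor3 and Hdac2 passed it, as did 43.7% of all genes, and Rcor1 lost it without EtOH day 3 replicate 1 (0.126) and Hdac2 without EtOH day 7 replicate 3 (0.0902), and both with upper quartile scaling (0.225 and 0.0705). In that arm 5 of 12 enterocyte, 3 of 9 goblet cell and 2 of 10 Paneth cell genes were higher at day 7. There 2 of 6 tuft cell genes and 1 of 10 stem cell genes were lower. Of 4 enteroendocrine genes tested, 1 was higher and 2 were lower, and 14 of 15 proliferation genes had log2 fold changes above 0. The part of these cell states in the values of the members was not tested.

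**Figure D2:**
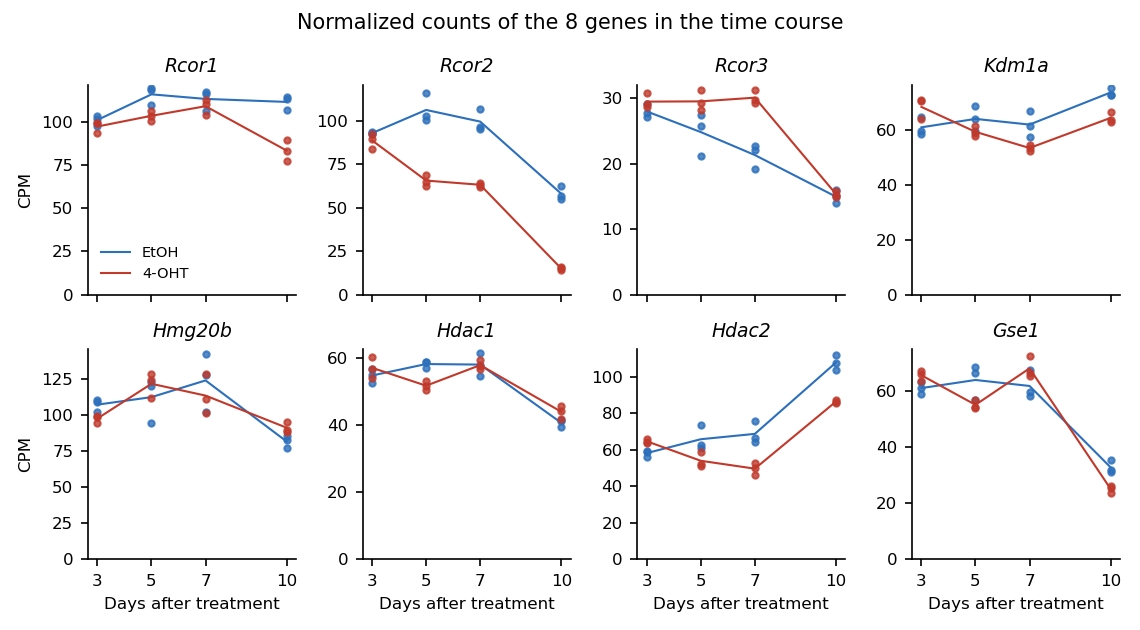
Normalized counts (CPM, each axis from 0) of the 8 genes against days after treatment; points are libraries, lines join the means of 3, blue EtOH and red 4-OHT. The Rcor2 arms meet at day 3 and lie apart at days 5, 7 and 10, and in both arms Hdac2 is higher and Rcor3, Gse1 and Hdac1 are lower at day 10 than at day 7.

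Markers of other states moved in the same samples. At day 7, 14 of 15 proliferation genes were lower with 4-OHT, with summed levels of 749 to 1158 CPM against 1586 to 1836 CPM with EtOH, and 9 of 10 Paneth cell genes were lower, with sums of 1907 to 2162 CPM against 5099.9 to 6160.5 CPM. At day 5, 11 of 15 proliferation genes and 8 of 10 Paneth cell genes were lower. All 6 tuft cell genes tested and 8 of 10 stem cell genes were lower and 4 of 12 enterocyte genes were higher at day 7, and at day 5 4 tuft cell and 4 stem cell genes were lower while 2 enterocyte genes were higher and 2 lower. Of 9 goblet cell genes, 3 were lower at day 5 and 2 at day 7, with sums of 2393 to 2704 CPM against 3888 to 4532 CPM and of 2985 to 3339 CPM against 3863 to 4126 CPM with EtOH. All 7 epithelium markers had log2 fold changes above 0 at day 7 (median 0.32, 1 called), with sums of 7096 to 7532 CPM against 5640 to 5973 CPM. At day 3, where Rcor2 was not called, 8 of 12 enterocyte genes were lower (median log2 fold change of -1.20), with sums of 3623 to 4193 CPM against 7494 to 8017 CPM with EtOH. Also at day 3, 3 of 6 tuft cell genes and 1 of 9 goblet cell genes were lower, 3 of 10 stem cell and 2 of 10 Paneth cell genes were higher, and none of the 15 proliferation genes passed both cutoffs (median 0.34). The log2 fold changes of Mki67, a marker of cycling cells, at days 3, 5 and 7 were 0.10, -0.74 and -1.05, and those of Lyz1, the lysozyme of Paneth cells, 0.28, -1.01 and -1.63. Mesenchyme markers summed to 43.2 CPM in EtOH day 7 replicate 2 and to at most 2.16 CPM in the other 5 libraries of day 7, while Rcor2 was at 64.4 CPM or less in every 4-OHT library and 94.9 CPM or more in every EtOH library of that day. The part of these cell states in the Rcor2 change was not tested.

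The response with kinase-dead CDK19 was compared with that without CDK19 at day 7. The 6 libraries of Cdk19 D173A organoids were tied to their genotype by elimination, since their columns name a line number. In them, Rcor2 fell from 35.4, 38.3 and 34.8 CPM with EtOH to 7.26, 8.65 and 9.50 CPM with 4-OHT. The groups were far apart, and the log2 fold change was -2.10, or 4.27-fold (standard error 0.11, adjusted p = 8.66e-07), rank 32 by p among 15457 genes. Rcor2 was the only member called, where 6.25% of all genes were called lower, and the only one past the adjusted p alone, where 27.8% of all genes were. The other 7 log2 fold changes lay between -0.14 (Kdm1a) and 0.00 (Hdac1), and the lowest of their adjusted p-values was 0.155.

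The response of Rcor2 in Cdk19 D173A organoids minus that in the CDK19-null time course at day 7 was -1.44 on the log2 scale (standard error 0.12, adjusted p = 1.82e-06, rank 23 of 15636 genes). This contrast called 6.25% of all genes lower and 4.9% higher, and Rcor2 was the 1 member called. Rcor3 and Hdac2 had differences of -0.50 (adjusted p = 0.011) and 0.39 (adjusted p = 0.0306), under the fold cutoff, and Hdac2 was at an adjusted p of 0.0686 without 4-OHT library 1. The vehicle arms of the 2 lines had Rcor2 means of 36.2 and 99.4 CPM, and line, sex and count table differ together with the CDK19 allele and cannot be told apart from it. In the Cdk19 D173A comparison, all 8 tuft cell genes tested were lower (median log2 fold change of -2.08), with sums of 13.1 to 17.5 CPM against 59.7 to 67.4 CPM with EtOH. There 7 of 9 Paneth cell, 6 of 9 stem cell, 5 of 10 enteroendocrine, 4 of 9 goblet cell and 1 of 15 proliferation genes were lower, and 6 of 12 enterocyte, 3 of 10 enteroendocrine, 2 of 9 goblet cell and 1 of 9 Paneth cell genes were higher. Proliferation markers summed to 830 to 914 CPM with 4-OHT and 1044 to 1186 CPM with EtOH, and Lyz1 was higher with 4-OHT by 0.89 on the log2 scale (adjusted p = 0.000118), opposite to its day 7 change in the time course. The part of these cell states in the Rcor2 values was not tested.

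In Wnt3-CM, Rcor2 was at 32.4, 27.5 and 30.3 CPM with EtOH and at 24.5, 27.3 and 21.8 CPM with 4-OHT. The highest 4-OHT library lay just under the lowest EtOH library, and the log2 fold change was -0.29 (standard error 0.09, 95% interval -0.55 to -0.04, adjusted p = 0.0114), under the fold cutoff. No member was a DEG there, against 16.9% of all genes. Set beside the day 10 pair without Wnt3-CM, the vehicle mean was 30.1 against 58.0 CPM and the 4-OHT mean 24.5 against 14.9 CPM. The difference of these responses was not tested, because the day 10 values chose Rcor2.

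Without reaching 1.5-fold, other members differed in Wnt3-CM. Rcor1 was at 112, 117 and 111 CPM with EtOH and 86.2, 94.0 and 84.1 CPM with 4-OHT (log2 fold change of -0.36, adjusted p = 0.000128). Gse1 was at 42.2, 36.2 and 34.0 CPM and at 22.6, 31.4 and 27.2 CPM (log2 fold change of -0.47, adjusted p = 0.00251). The groups of both genes were apart. The log2 fold changes of Hmg20b and Hdac2 were 0.29 (adjusted p = 0.00385) and -0.17 (adjusted p = 0.0338), so that 5 of 8 members passed the adjusted p alone, where 48.2% of all genes did. Of these, Hdac2 was at an adjusted p of 0.197 without EtOH library 2 and 0.0577 without EtOH library 3. Rcor2 was at 0.0602 without EtOH library 1 and 0.0945 without 4-OHT library 3. In these cultures all 9 Paneth cell and all 7 tuft cell genes tested were lower (median log2 fold changes of -1.82 and -3.50), as were 5 of 9 goblet cell, 4 of 10 stem cell and 2 of 7 epithelium genes. Of 3 enteroendocrine genes tested, 2 were lower (median log2 fold change of -1.45). Epithelium markers summed to 8188 to 8848 CPM with 4-OHT against 10910 to 11364 CPM with EtOH. Higher with 4-OHT were 6 of 12 enterocyte and 3 of 15 proliferation genes. The part of these cell states in the values of the members was not tested.

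**Figure D3:**
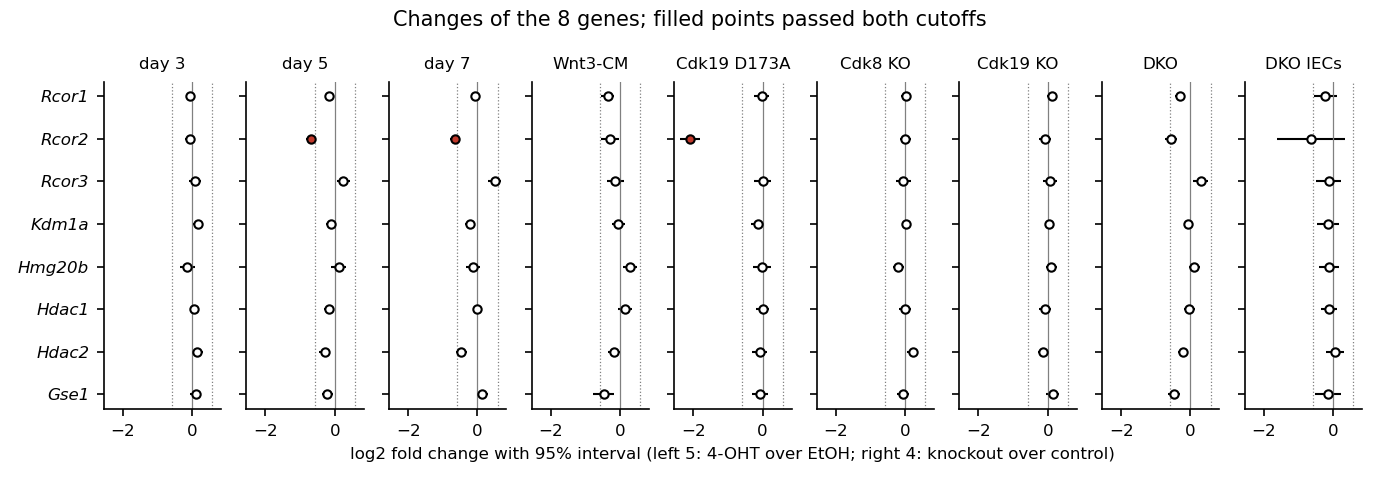
Log2 fold changes of the 8 genes (points) with 95% intervals (bars) in 9 comparisons of 3 against 3 libraries; filled points passed both cutoffs and dotted lines mark 1.5-fold. The 3 filled points are Rcor2 at day 5, at day 7 and in Cdk19 D173A organoids, and the widest interval is that of Rcor2 in IECs.

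With either kinase deleted alone, Rcor2 overlapped its controls. It was at 27.8, 28.4 and 30.2 CPM in VillinCreERT2 organoids and at 30.0, 28.8 and 27.6 CPM in Cdk8 KO organoids, which overlapped (log2 fold change of 0.00, standard error 0.07, 95% interval -0.16 to 0.17, adjusted p = 0.993). It was at 24.1, 26.0 and 26.3 CPM in C57BL/6 organoids and at 24.2, 24.7 and 23.8 CPM in Cdk19 KO organoids, which overlapped too (log2 fold change of -0.07, 95% interval -0.25 to 0.10, adjusted p = 0.595). No member was a DEG in either comparison, where 7.23% and 5.25% of all genes were. In Cdk8 KO organoids, Hdac2 differed by 0.22 (adjusted p = 0.0166) and Hmg20b by -0.20 (adjusted p = 0.0372) on the log2 scale, and these were the 2 members past the adjusted p alone, where 30.3% of all genes were. Each lost the pass when 1 library was left out, with an adjusted p of 0.0867 for Hdac2 without VillinCreERT2 replicate 2 and of 0.139 for Hmg20b without Cdk8 KO replicate 2. In Cdk8 KO organoids 6 of 12 enterocyte, 3 of 9 goblet cell and 1 of 7 tuft cell genes were lower, and 2 of 9 Paneth cell genes and 1 of 9 stem cell genes were higher. No proliferation gene passed both cutoffs, but all 15 had log2 fold changes above 0 (median 0.42), with sums of 1905 to 2044 CPM against 1478 to 1585 CPM in VillinCreERT2. The part of these cell states in the values of Hdac2 and Hmg20b was not tested. In Cdk19 KO organoids no member passed it by edgeR, where 15.5% of all genes did, and 0 had an unadjusted p under 0.05. DESeq2 and limma-voom called 0 members past both cutoffs in either comparison.

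In DKO organoids, Rcor2 was at 21.02, 20.4 and 17.1 CPM. All 3 libraries lay below those of VillinCreERT2, with a log2 fold change of -0.56, or 1.48-fold (standard error 0.08, adjusted p = 1.23e-06), just under the fold cutoff, so that no member was a DEG where 19.4% of all genes were. Without DKO replicate 1, DKO replicate 2 or VillinCreERT2 replicate 1 the fold cutoff was passed as well, with log2 fold changes of -0.62, -0.60 and -0.59. Against Cdk19 KO organoids, which share the CDK19 allele, the log2 fold change was -0.31 (standard error 0.08, adjusted p = 0.00321), and no member was a DEG against 10.6% of all genes. Rcor2 was the 1 member past the adjusted p alone there, against 34.6% of all genes. In the same comparison all 9 Paneth cell and all 7 tuft cell genes tested, 6 of 10 enteroendocrine, 5 of 9 stem cell and 1 of 9 goblet cell genes were lower, and 6 of 12 enterocyte genes were higher and 1 lower. No proliferation gene passed both cutoffs, but all 15 had log2 fold changes below 0 (median -0.32), with sums of 1350 to 1534 CPM in DKO and 1790 to 1870 CPM in Cdk19 KO organoids. The part of these cell states in the Rcor2 value was not tested. The change in DKO organoids minus the sum of both single changes was -0.49 (standard error 0.11, adjusted p = 0.000849), under the fold cutoff, and no member was past both in this contrast, against 19.6% of all genes. Cdk8 KO and DKO organoids were compared with the same VillinCreERT2 libraries, whose chance values enter both comparisons. The columns of VillinCreERT2 and Cdk8 KO organoids are named in another style than those of DKO, C57BL/6 and Cdk19 KO organoids. Genotype and handling therefore cannot be told apart in DKO against VillinCreERT2 organoids or in the contrast with the sum of single changes.

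Gse1 and Rcor1 had lower levels in DKO than in VillinCreERT2 organoids, and in both cases the C57BL/6 control line had a like level. Columns of DKO and C57BL/6 organoids share a naming style that those of VillinCreERT2 organoids do not, so line and handling cannot be told apart here. Gse1 was at 24.9, 25.4 and 23.2 CPM in DKO, at 34.8, 32.6 and 34.9 CPM in VillinCreERT2 and at 25.3, 25.4 and 20.4 CPM in C57BL/6 organoids. DKO and C57BL/6 overlapped and both lay below VillinCreERT2, with log2 fold changes against it of -0.48 (adjusted p = 2.05e-05) and -0.53 (adjusted p = 4.1e-06). Rcor1 was at 109.7, 108 and 107 CPM in DKO, at 137, 134 and 132 CPM in VillinCreERT2 and at 121, 110.4 and 95.2 CPM in C57BL/6 organoids. Both log2 fold changes of Rcor1 were -0.31 (adjusted p = 0.000156 and 0.000141). Rcor2 differed less between the control lines, by -0.18 (adjusted p = 0.0471, and up to 0.299 over the alternatives, 9 of which lost the pass), and no member was a DEG between them, although 26.4% of all genes were. In DKO against VillinCreERT2 organoids, the log2 fold changes of Rcor3 and Hdac2 were 0.30 (adjusted p = 0.00956) and -0.21 (adjusted p = 0.0117). They were at adjusted p-values of 0.0838 without VillinCreERT2 replicate 2 and of 0.116 without DKO replicate 1. Thus 5 of 8 members passed the adjusted p alone in that comparison and 3 of 8 between the control lines, where 52.9% and 61.3% of all genes did. Between the control lines, 7 of 9 Paneth cell, 7 of 10 enteroendocrine, 2 of 7 tuft cell and 2 of 9 stem cell genes were higher in C57BL/6 than in VillinCreERT2 organoids, and 3 of 10 enteroendocrine, 3 of 9 goblet cell and 3 of 12 enterocyte genes were lower. All 15 proliferation genes had log2 fold changes above 0 there (median 0.27), none past both cutoffs. In DKO organoids 7 of 9 Paneth cell, 8 of 9 stem cell, 5 of 9 goblet cell, 6 of 10 enteroendocrine and all 7 tuft cell genes tested were lower than in VillinCreERT2, 3 of 12 enterocyte genes were higher, and none of the 15 proliferation genes was called. Whether these cell states had a part in the values of the members was not tested.

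In IECs the scaffold level rested on Rcor1. Rcor2 had 17, 16 and 26 counts in VillinCreERT2 and 16, 14 and 11 counts in DKO libraries, or 0.933, 0.870 and 1.39 against 0.823, 0.705 and 0.540 CPM. The groups did not overlap, but the log2 fold change of -0.62 (standard error 0.35, 95% interval -1.60 to 0.36) was not detectable with these counts and this spread between libraries (adjusted p = 0.365). No member was a DEG in IECs, against 1.5% of all genes, and none passed the adjusted p alone by edgeR, against 1.54%. DESeq2 and limma-voom called 0 as well, and 0 had an unadjusted p under 0.05. The other 7 log2 fold changes lay between -0.22 (Rcor1) and 0.06 (Hdac2), with adjusted p-values of 0.337 or more. Of the epithelial lists, 5 of 10 Paneth cell, 3 of 9 goblet cell, 2 of 8 tuft cell, 2 of 10 stem cell and 1 of 15 proliferation genes were lower in DKO IECs. All 10 stem cell and all 15 proliferation genes had log2 fold changes below 0 (medians -0.98 and -0.51), with stem cell sums of 434 to 729.95 CPM against 977 to 1357 CPM and proliferation sums of 332 to 533 CPM against 532 to 662 CPM. Immune markers summed to 177 to 921 CPM in VillinCreERT2 and 1106 to 2191 CPM in DKO IECs, none of the 12 was at 0 in either group, and mesenchyme markers summed to 13.8 to 897 and 468 to 993 CPM. Of the 3 DKO IEC libraries, 1 had 1.11 CPM of Xist and 30.2 CPM of Ddx3y, a gene of the Y chromosome, against 134 to 169 CPM of Xist in the VillinCreERT2 libraries. The part of these cells and of sex in the IEC values was not tested.

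Compared per kilobase of exon, the scaffolds changed places between cultures. In the time course with EtOH at day 5, Rcor2 was at 33.6, Rcor1 at 20.4 and Rcor3 at 1.82 CPM per kb, whereas in VillinCreERT2 organoids the levels were 9.12, 23.7 and 1.25 CPM per kb. Rcor2 made up 59.3% ± 2.60 (SD, n = 3) of the summed scaffold level with EtOH and 48.2% ± 0.572 with 4-OHT at day 7. In Cdk19 D173A organoids its share was 36.0% ± 1.204 with EtOH and 11.9% ± 2.41 with 4-OHT, while the sum went from 31.8 ± 0.596 to 22.7 ± 1.64 CPM per kb and Rcor1 stayed at 18.8 and 18.5 CPM per kb. In Wnt3-CM the share was 30.8% ± 2.21 and 31.5% ± 1.39, since Rcor1 and Rcor2 were both lower with 4-OHT. In IECs it was 2.56% ± 0.673 and 1.98% ± 0.610. Exon length was taken over all annotated transcripts, so a gene read mostly from a short isoform appears lower than it is.

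**Figure D4:**
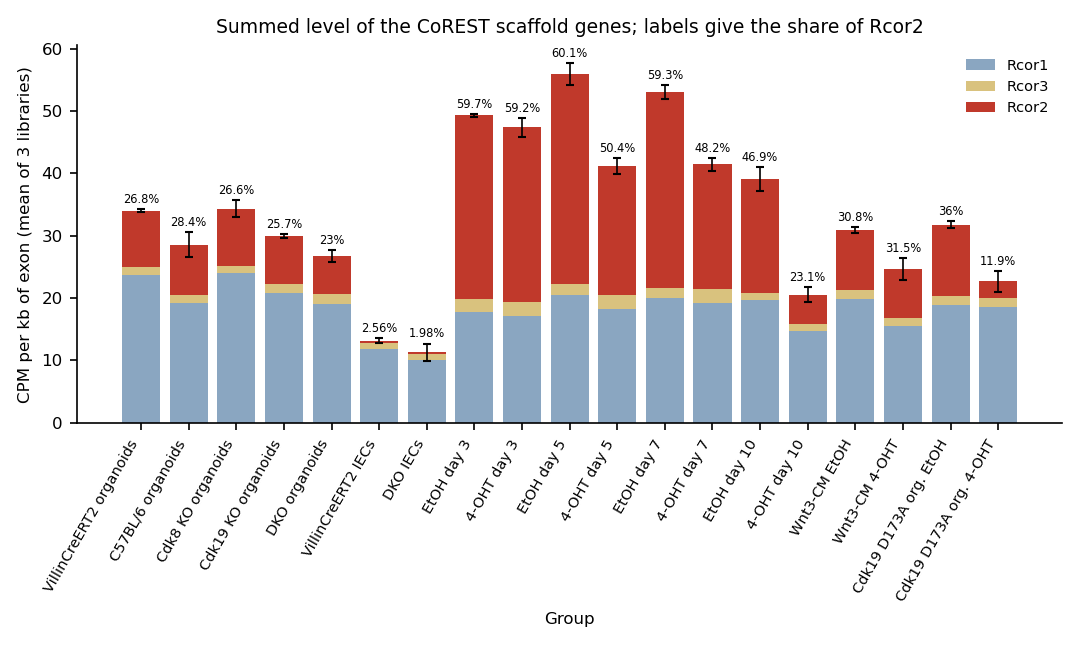
Summed level of Rcor1, Rcor3 and Rcor2 (CPM per kb of exon, stacked means of 3 libraries) by group; error bars are the SD of the sum and the labels above give the mean share of Rcor2. The share is near 60% in the time course to day 7 with EtOH, 11.9% in Cdk19 D173A organoids with 4-OHT and under 3% in IECs.

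The other members spanned narrower ranges of levels across organoid groups than Rcor2, which was picked for a large change. Per kilobase, Kdm1a lay between 10.3 and 14.9, Hdac1 between 10.6 and 16.9, Hdac2 between 11.1 and 27.4 and Hmg20b between 24.2 and 39.5 CPM in the organoid groups. Gse1 lay between 2.29 and 6.57 CPM per kb and Rcor3 between 1.10 and 2.21 CPM per kb. In IECs, Hdac2 was at 28.2 to 32.7 CPM, below every organoid library (45.9 CPM or more), and Rcor1, Kdm1a and Hdac1 were also lower in every IEC library than in every organoid library, while Rcor3, Gse1 and Hmg20b overlapped the organoid range. IECs and organoids were normalized separately and differ in their immune and mesenchyme markers. The share of all genes lying apart in this way is not given here, so nothing is read from these gaps. Gse1 overlaps Gins2 and Gm20388, Kdm1a overlaps Luzp1 and Gm12987, and Rcor1 and Rcor3 overlap noncoding or pseudogene annotations. The strand setting of the counting was not given in the sources used here, so reads from such neighbours may be included or lost, and Rcor2 overlaps no annotated gene.

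Of 12 tested partners and recruiters of LSD1-CoREST, 1 was lower at day 5 (Insm1) and 1 at day 7 (Gfi1), where 4.62% and 9.25% of all genes were. For Insm1, a SNAG-domain repressor of endocrine cells, the log2 fold change at day 5 was -1.01 (adjusted p = 0.00098), with a mean of 69.3 counts in the higher group. Insm1 was also lower within the EtOH arm at day 7 than at day 3, with a log2 fold change of -0.73 (adjusted p = 0.00788). In Cdk19 D173A organoids the log2 fold change of Insm1 was -0.73 (adjusted p = 0.00166), in DKO against VillinCreERT2 organoids -0.67 (adjusted p = 2.82e-05) and in DKO against Cdk19 KO organoids -0.83 (adjusted p = 3.64e-06). Gfi1, a SNAG-domain repressor of secretory progenitors, had a log2 fold change at day 7 of -0.74 (adjusted p = 0.00102), which was -0.58, under the fold cutoff, without 4-OHT day 7 replicate 1, and -0.87 in DKO against Cdk19 KO organoids (adjusted p = 0.00207). Insm1 was higher in C57BL/6 than in VillinCreERT2 organoids, by 0.67 on the log2 scale, the size of its log2 fold change in DKO organoids, and by 0.57, under the fold cutoff, without C57BL/6 replicate 2.

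Of the 10 NuRD genes, which belong to another complex built on HDAC1 and HDAC2, 2 were lower at day 7, where 9.25% of all genes were, with log2 fold changes of -0.75 for Cdk2ap1 and -0.65 for Mbd3. At day 5, Chd3, a NuRD remodeller, was higher by 0.60 (0.54, under the fold cutoff, without 4-OHT day 5 replicate 3), and Chd5, with 16 counts or fewer on average, was lower. Cdk2ap1 had a log2 fold change of -1.04 in DKO against VillinCreERT2 organoids and of -0.62 in C57BL/6 against VillinCreERT2 organoids, the latter -0.54, under the fold cutoff, with upper quartile scaling or without C57BL/6 replicate 2. In Wnt3-CM, Chd5 had a log2 fold change of -1.87. Of the 13 SIN3 genes, Brms1l alone was called at day 7 (log2 fold change of -0.60, and -0.57, under the fold cutoff, without EtOH day 7 replicate 1). Among the other ELM2-SANT scaffolds, which share the domains of CoREST proteins, Rere was lower in DKO organoids (-0.59, and under the fold cutoff in 5 alternatives, at -0.57 to -0.30), Elmsan1 was lower in Wnt3-CM (-0.77) and in C57BL/6 against VillinCreERT2 organoids (-0.70), and Mta3 was higher in Wnt3-CM (0.60, and 0.56, under the fold cutoff, without 4-OHT library 1). The median log2 fold changes of the members at day 7 were -0.09, of the partners and recruiters 0.05, of ELM2-SANT scaffolds -0.12, of NuRD -0.24, of SIN3 -0.10 and of NCoR-SMRT -0.08, against -0.01 over all 15447 genes tested.

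The genes whose pattern was most like that of Rcor2 over the 24 time course libraries were Khsrp, Cbfa2t3, Atp2a3, Zfp609 and Creb3l1, with Pearson's r of log2 CPM of 0.969, 0.968, 0.963, 0.961 and 0.960 among 11597 genes. Libraries of a group share their culture and the day 10 libraries hold the lowest values, so these are descriptions of 8 groups of 3. Cbfa2t3, which encodes a corepressor of the ETO family, had log2 fold changes of -0.26 at day 3, -0.91 at day 5 and -0.67 at day 7, and Creb3l1, a transcription factor of secretory cells, had -0.22, -0.73 and -0.62. In Cdk19 D173A organoids, those of Cbfa2t3 and Creb3l1 were -0.89 and -1.04, while Khsrp, an RNA-binding protein gene, had -0.24 and Atp2a3, a calcium pump gene, had 1.30. Of the members, Gse1 (r = 0.845) and Rcor1 (r = 0.733) were most like Rcor2, and Kdm1a (r = -0.08) and Hdac2 (r = -0.42) were unlike it.

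**Figure D5:**
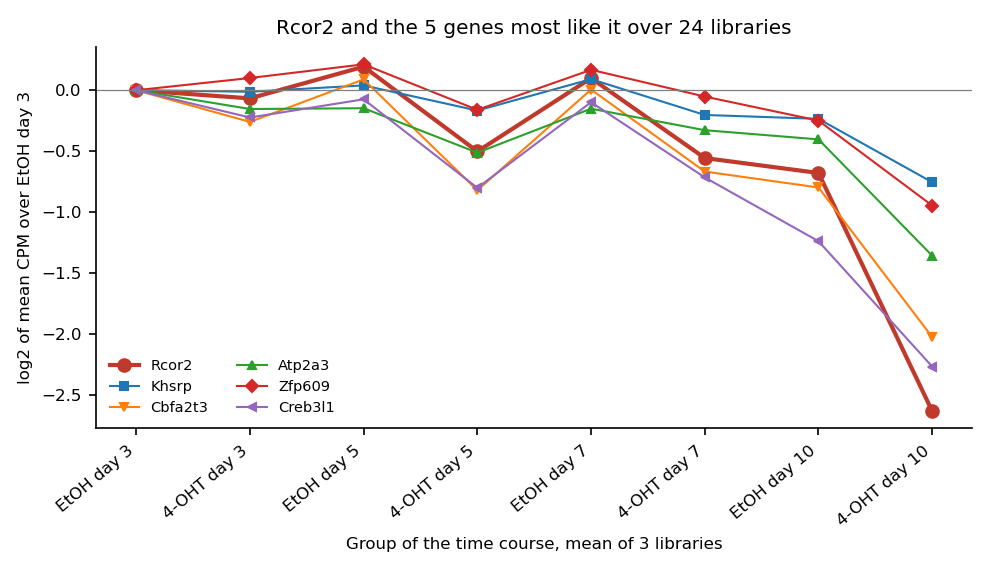
Log2 of the mean CPM (3 libraries) relative to EtOH at day 3 for Rcor2 and the 5 genes most like it, by group of the time course. Each gene is lower with 4-OHT than with EtOH at days 5, 7 and 10, and Rcor2 is the lowest at 4-OHT day 10. Rcor2 was picked for its day 10 fall and the other 5 for likeness to it over these libraries, so nothing is read from their shared course.

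Over the 15 organoid libraries of day 7, other genes were most like Rcor2: Wiz, Ncln, Zmiz2, Hmga1 and Mt2, with r of 0.967, 0.962, 0.956, 0.948 and 0.948 among 11634 genes. These libraries are of 5 lines, and line and genotype cannot be told apart in this order. No gene was among the first 5 in both sets, and Rcor3 (r = -0.70) and Gse1 (r = 0.667) stood at the ends of the members.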

How the data were processed

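The authors deposited tables of raw counts per gene (54752 identifiers, unit counts). Per the submitters' processing notes, reads were handled with STAR 2.5.2 and featureCounts (Subread 1.6.3) on mm10, and the labels give polyA RNA and paired reads of 100 bp. Library totals are given above, and 6 columns were left out because their names do not match a label. IECs of the Cdk19 wt/D173A and Cdk19 ko/D173A genotypes were not analysed here. The members and gene lists were chosen with earlier results of these data known. Tests used edgeR 4.0.16 (R 4.3.3): filterByExpr by group (minimum count 10), TMM scaling, robust quasi-likelihood F tests and Benjamini-Hochberg adjustment over all genes tested. A single fit held the 5 organoid groups of day 7 and another the 8 time course groups, while IECs, Wnt3-CM and Cdk19 D173A libraries were fitted as pairs and the last also jointly with the time course at day 7. The Wnt3-CM and Cdk19 D173A columns name a group but not which sample, and those of Cdk19 D173A organoids were assigned by elimination, since their names give no genotype. Named genes were the 8 members, up to 5 DEGs per comparison of the corepressor lists with a mean of 50 counts or more in the group where they were higher, and the 5 genes most like Rcor2. Values of the most like genes are log2 CPM with a prior count of 2. Alternatives used DESeq2 1.42.0, limma-voom (limma 3.58.1), upper quartile scaling, other filters and left-out libraries, and the scripts were tested on simulated data. Gene positions are of GENCODE M21 on GRCm38, which holds 53861 of the identifiers. Replicates differed by more than sampling noise (chi-square per gene 2.40 to 71.1).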

Additional observations from a re-analysis of the deposited data

Results flagged for a closer look

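The differences between responses given here were past both cutoffs in edgeR's quasi-likelihood test of the difference itself. The response to 4-OHT at day 7 differed from that at day 3 for Rcor2 by -0.59 (adjusted p = 7.62e-06) and for Hdac2 by -0.62 (adjusted p = 1.72e-05) on the log2 scale. The same contrast was past the cutoffs for Brms1l (-0.98), Cdk2ap1 (-0.81) and Mbd3 (-0.66). Rcor2 fell under the fold cutoff in 5 of 19 alternatives (DESeq2, no filter on low counts and 3 left-out libraries), with values of -0.66 to -0.55 over all of them, and Hdac2 did without EtOH day 7 replicate 3 (-0.55). None of the 5 was past both cutoffs at day 3, and all but Hdac2 were past both at day 7, with lower levels. Columns of days 3 and 7 are named in differing styles, so day and handling cannot be told apart in this contrast.

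The response to 4-OHT at day 7 in organoids with kinase-dead CDK19 differed from that without CDK19 for Rcor2 by -1.44 (adjusted p = 1.82e-06), for Insm1 by -0.78 (adjusted p = 0.0204) and for Brms1 by -0.60 (adjusted p = 0.00163). Brms1 was at -0.56, under the fold cutoff, without EtOH day 7 replicate 2. In the same contrast 5 of 10 enteroendocrine genes were lower and 1 was higher, with a median log2 difference of -1.70. The part of these cells in the Insm1 value was not tested. For Rcor2 both responses were falls, of 2.10 and 0.66 on the log2 scale. The 2 lines also differ in sex-linked transcripts and were counted in separate tables, and the part of this was not tested.

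The change in DKO organoids differed from the sum of both single knockouts for Cdk2ap1 by -0.94 (adjusted p = 1.75e-06) and for Rest by -0.59 (adjusted p = 0.000107). Rest fell under the fold cutoff with at least 10 counts in every library (-0.56), with upper quartile scaling (-0.53), with DESeq2 (-0.58) and without C57BL/6 replicate 2 (-0.51). Cdk2ap1 also differed between the control lines, by -0.62, and the contrast with the single knockouts contains the C57BL/6 line. The columns of its groups are named in differing styles, so genotype and handling cannot be told apart.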

How the results depend on the processing

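Each log2 fold change of Rcor2 was recomputed without the filter on low counts, with at least 10 counts in every library, with upper quartile scaling, with DESeq2, with limma-voom and with each library left out. At days 5 and 7 and in Cdk19 D173A organoids Rcor2 was past both cutoffs in each, with ranges of -0.75 to -0.65, -0.70 to -0.61 and -2.18 to -2.00. The difference of responses between days 7 and 3 was close to the fold cutoff: it was -0.58 without the filter on low counts and -0.58 with DESeq2, both just under it, and -0.66 to -0.55 with 1 library left out, falling under it without EtOH day 7 replicate 1 (-0.55) or 4-OHT day 3 replicate 1 (-0.58) or 2 (-0.56). In DKO against VillinCreERT2 organoids the range with 1 library left out was -0.62 to -0.46, and 0 to 1 members were called. Rcor2 in Wnt3-CM was -0.37 to -0.21 with 1 library left out, with an adjusted p of up to 0.0945.

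With the replicate number as a replicate block, the log2 fold changes of Rcor2 were -0.07, -0.69 and -0.66 at days 3, 5 and 7, -0.59 for the difference of days 7 and 3, 0.00 in Cdk8 KO, -0.07 in Cdk19 KO, -0.56 in DKO against VillinCreERT2 organoids and -0.61 in IECs, and the block changed no call of a member. Equally numbered libraries correlated by -0.41 to 0.379, and in no comparison were all 3 correlations above 0.1, so the numbers were not taken as pairs. Every library was nevertheless most like its own number in C57BL/6 against VillinCreERT2 and DKO against Cdk19 KO organoids (0.0351 to 0.0699) and in Wnt3-CM (0.0951 to 0.222), and in Cdk19 D173A organoids the correlations were 0.0950 to 0.379. The Wnt3-CM and Cdk19 D173A columns end in a number that could not be tied to the samples of the labels. With that column number, within a line, as a replicate block, an alternative chosen after seeing the data, the log2 fold changes of Rcor2 were -0.30 in Wnt3-CM, -2.10 in Cdk19 D173A organoids and -1.45 for the difference from the time course, and no member changed its call. Without the day 10 libraries, an alternative chosen after seeing the data, the log2 fold changes of Rcor2 were -0.06, -0.69 and -0.68 at days 3, 5 and 7. For 57 other values of members and corepressor genes, 18 recomputed values no longer passed both cutoffs (of Rere, Insm1, Cdk2ap1, Chd3, Gfi1, Brms1l, Mta3, Hdac2, Rest and Brms1), 1 newly did (Gse1, DKO minus the sum of single changes without C57BL/6 replicate 1) and 0 reversed; Hdac2 between days 7 and 3 was -0.55 without EtOH day 7 replicate 3. Rcor2 had 11 to 26 counts per IEC library, and IEC libraries of a group differed by a chi-square per gene of 17.6 to 71.1.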
